A study of Mus musculus with 2 samples.

Results

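The genes described here are 10 members of fibroblast growth factor (FGF) signalling, the receptor genes Fgfr1, Fgfr2, Fgfr3, Fgfr4 and Fgfrl1, the ligand gene Fgf9 and the feedback genes Spry1, Spry2, Spry4 and Dusp6. They were taken by gene symbol from the array's probe annotation, which gave 17 of the array's 45281 probes to 9 of the 10 genes. Spry1 had no probe in the annotation used here and is not analysed here. RNA was measured on 2 Illumina bead arrays, where the brightness averaged over the beads of a probe follows the amount of RNA that matches it. The first array held RNA of the whole dissociated mouse heart at stage E11.5, a day of mid-gestation (total heart). The second held RNA of epicardial cells of that stage isolated for lacZ (lacZ-positive). Both samples carried the Tcf21lacZ allele on a mixed C57BL/6, 129 and CD-1 background, so the comparison is between cell populations of 1 genotype and stage. In this allele lacZ is tied to Tcf21, a basic helix-loop-helix factor gene active in the epicardium and in cells derived from it. How lacZ was read out, and how many hearts were pooled, is not stated in the labels. Each group had 1 array, so differences have no replicate check or test behind them and are described by size alone.

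FGFs are secreted ligands that bind receptor tyrosine kinases together with heparan sulfate on the cell surface and switch on the Ras and ERK kinase cascade. The signal induces its own brakes, among them the Sprouty proteins, which dampen the cascade, and Dusp6, a phosphatase that inactivates ERK in the cytoplasm. In the mouse embryo the epicardium is known as a source of FGF9 that acts on heart muscle, and Fgfr2 is known to act in cells derived from the epicardium.

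The receptor gene Fgfr2 was 2.34-fold higher in the lacZ-positive sample than in total heart by its representative probe, and Dusp6 was 1.72-fold higher by all 3 of its probes to nearly the same extent. Fgfrl1, which encodes a receptor without a tyrosine kinase domain, was 1.56-fold higher. Fgf9 was higher by a size that differed between its 2 probes, from 1.35-fold to a bound of at least 1.84-fold. Spry4 was detected in the lacZ-positive sample alone. Fgfr3 differed little, but its signal was just above the detection limit on both arrays. Fgfr1, Fgfr4 and Spry2 were not well above background on either array and have no ratio. A gene counted as detected if a probe of it had a detection p-value under 0.01 on at least 1 array, where that p-value is the share of control probes at least as bright. A detected gene was represented by its detected probe with the highest mean signal. Of the 17 probes 8 were detected on both arrays and 7 on neither. The other 2, seen with the lacZ-positive RNA but not with total heart, belong to Fgf9 and Spry4.

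**Figure D1:**
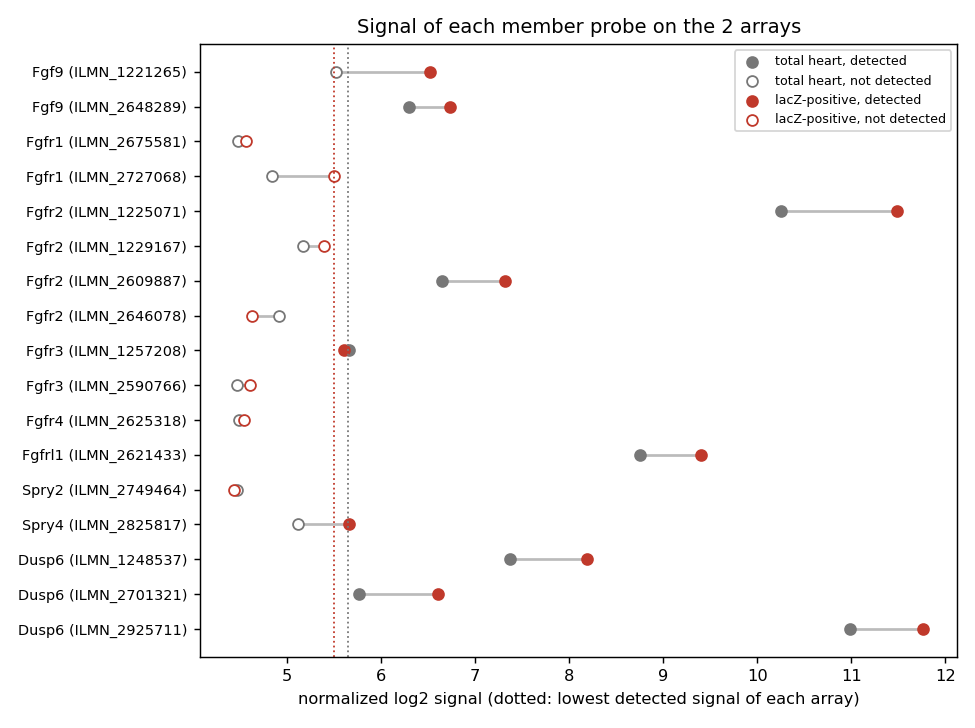
Normalized log2 signal (x axis) of each of the 17 probes (y axis) on the total heart array (grey) and the lacZ-positive array (red), with filled points for a detection p-value under 0.01 and dotted lines at the lowest detected signal of each array, 5.65 and 5.50. The detected probes of Fgfr2, Fgfrl1, Dusp6, Fgf9 and Spry4 lie further right on the lacZ-positive array, and both points of the detected Fgfr3 probe lie near the dotted lines.

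Ratios are log2 of the lacZ-positive value minus total heart, after background correction and quantile normalization of both arrays. Their error is the bead standard error, from which a 95% bead interval was computed. It leaves out any variation from one animal, isolation or hybridisation to another. The lacZ-positive array was brighter as a whole, with a median raw intensity of 63.5 against 57.6. Of all 9713 genes detected on at least 1 array, 3.82% were higher by 2-fold or more in lacZ-positive cells and 6.44% lower, so that 37.2% of the genes past 2-fold were higher. Without normalization between the arrays this share was 72.8%, and the median gene moved from 0.044 to 0.42 (log2).

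The 250 bases before the start of 4 of these genes are shown because Fgfr2, Fgfrl1 and Dusp6 were the members at least 1.5-fold higher, and Fgfr3 was the detected receptor that stood level. The sequences are RefSeq's for GRCm38.p6, written 5′ to 3′ on the strand of the gene. Capitals mark CCGGAA, 1 form of the site bound by ETS factors such as those that ERK activates, and GGGCGG, the GC box, each searched on both strands. No 2 marked matches overlap in these windows.
Fgfr2 (chr7:130266809-130267058, minus strand): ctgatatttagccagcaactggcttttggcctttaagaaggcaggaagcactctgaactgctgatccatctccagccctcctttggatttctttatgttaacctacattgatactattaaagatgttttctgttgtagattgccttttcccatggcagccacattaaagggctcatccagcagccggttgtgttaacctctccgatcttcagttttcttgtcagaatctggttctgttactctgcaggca
Fgfrl1 (chr5:108693979-108694228, plus strand): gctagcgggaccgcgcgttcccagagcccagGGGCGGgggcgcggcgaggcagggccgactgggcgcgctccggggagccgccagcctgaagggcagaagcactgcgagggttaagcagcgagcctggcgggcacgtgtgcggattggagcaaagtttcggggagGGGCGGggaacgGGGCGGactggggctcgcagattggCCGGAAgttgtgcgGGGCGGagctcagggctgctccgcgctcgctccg
Dusp6 (chr10:99262981-99263230, plus strand): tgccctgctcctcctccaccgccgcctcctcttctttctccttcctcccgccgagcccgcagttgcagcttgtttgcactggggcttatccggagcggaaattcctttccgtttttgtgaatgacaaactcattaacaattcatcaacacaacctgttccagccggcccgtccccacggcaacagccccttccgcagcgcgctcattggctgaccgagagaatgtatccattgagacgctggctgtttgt
Fgfr3 (chr5:33721474-33721723, plus strand): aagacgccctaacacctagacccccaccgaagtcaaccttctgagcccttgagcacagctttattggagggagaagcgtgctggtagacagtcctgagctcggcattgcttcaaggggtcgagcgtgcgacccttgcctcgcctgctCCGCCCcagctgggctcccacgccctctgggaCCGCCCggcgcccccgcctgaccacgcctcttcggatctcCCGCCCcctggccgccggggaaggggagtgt

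The Fgfrl1 window held 1 CCGGAA match, which begins 48 bases before the gene start, and 4 GC boxes. The Fgfr3 window held 3 GC boxes and no CCGGAA. The Fgfr2 and Dusp6 windows held neither CCGGAA nor GGGCGG, and other forms of the ETS site were not searched. Among the 32851 windows of this length in the RefSeq table, 12.0% held CCGGAA and 32.7% held GGGCGG on either strand. The TATA box, searched as TATAAA, stood in 0 of the 4 windows and in 12.4% of all. Base composition differed as well, with 44.0% G or C in the Fgfr2 window, 56.4% in that of Dusp6, 66.8% in that of Fgfr3 and 73.6% in that of Fgfrl1, where the median of all windows was 52.4%. A match is a run of letters and was not tested as a binding site, and these windows were not measured on the arrays.

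Fgfr2 encodes a receptor tyrosine kinase whose splice forms bind different sets of FGFs. Its representative probe, ILMN_1225071, had a raw intensity of 1077 ± 36.6 (bead SE, 52 beads) on the total heart array. On the lacZ-positive array the same probe read 3278 ± 101.0 (45 beads). Both values lay far above the mean background, estimated at 49.9 and 53.5. The normalized log2 signals were 10.26 and 11.48, a log2 ratio of 1.23 with a bead SE of 0.069 and a 95% bead interval from 1.09 to 1.36. Only 199 of the 9713 genes, Fgfr2 included, had a ratio that high or higher.

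The size for Fgfr2 differed between its probes. A further detected probe, ILMN_2609887, read 122.1 ± 5.77 in total heart and 218 ± 9.07 in the lacZ-positive sample, a log2 ratio of 0.67 with a bead interval from 0.43 to 0.90, which does not overlap that of the first. With the mean over both detected probes the ratio of Fgfr2 was 0.95 and the gene fell short of 2-fold. The other probes were detected on neither array. ILMN_1229167, the only one the annotation ties to the transcript NM_010207, read 67.2 and 83.1, and ILMN_2646078 read 61.1 and 57.6, both close to background. The 3 others of the gene are tied to the transcript NM_201601. Where each probe lies in the transcript is not known here, so these values say nothing about splice forms.

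**Figure D2:**
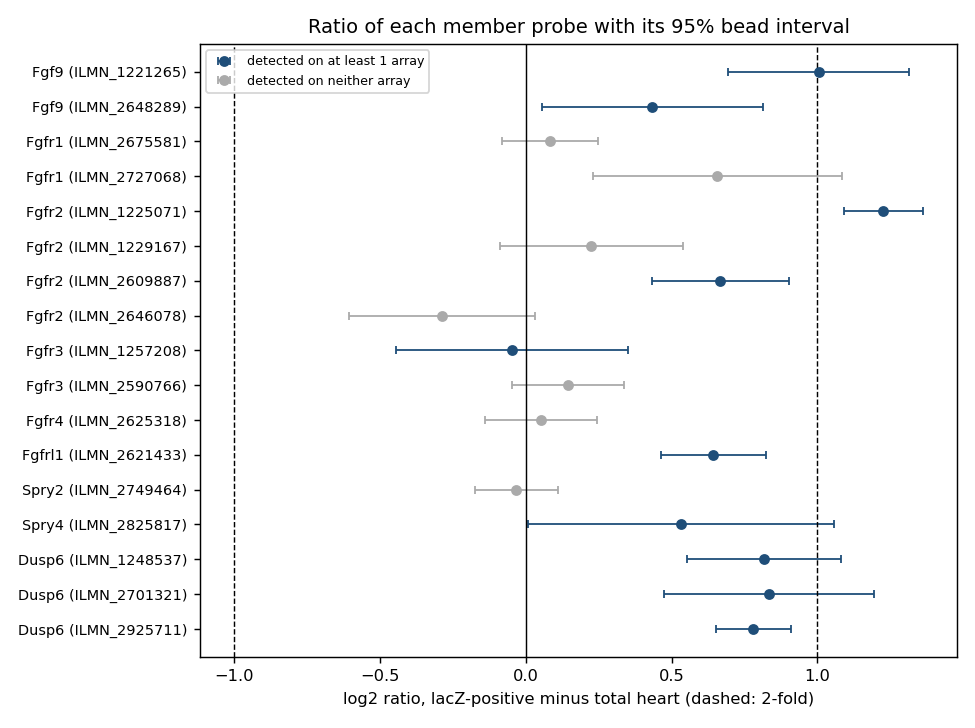
Log2 ratio of lacZ-positive to total heart (x axis) for each of the 17 probes (y axis), with 95% bead intervals, in blue for probes detected on at least 1 array and in grey for the others. The 3 Dusp6 probes lie between 0.78 and 0.83, while the 2 detected Fgfr2 probes lie at 1.23 and 0.67, and the intervals of several undetected probes are narrow because log2 values near background are compressed.

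Fgfrl1 binds FGFs and heparan sulfate but lacks the kinase domain that relays the signal. Its single probe, ILMN_2621433, read 409 ± 15.2 (43 beads) in total heart and 816 ± 34.8 (38 beads) in the lacZ-positive sample. The log2 signals of 8.76 and 9.40 gave a ratio of 0.64 with a bead interval from 0.46 to 0.82, at rank 1030 from the top of the 9713 genes. The interval lies above 0 and below the 2-fold line, and no further probe of the gene can be set beside it.

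Fgfr3, another receptor tyrosine kinase, was just detected on both arrays by probe ILMN_1257208, with detection p-values of 0.0096 and 0.0064. It read 79.9 ± 4.45 in total heart and 90.9 ± 5.37 in the lacZ-positive sample. After normalization the log2 ratio was -0.049 with a bead interval from -0.45 to 0.35, so a difference of that size in either direction could not be told from bead error at this brightness. Its other probe, ILMN_2590766, was detected on neither array. The ratio of Fgfr2 lay above that of Fgfr3 by 1.28 log2 units by its representative probe (bead interval 0.86 to 1.70) and by 0.72 by its other detected probe (0.25 to 1.18), with Fgfr3 itself at the detection limit.

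Fgfr1 and Fgfr4, the remaining kinase receptors, had no detected probe. Of the 2 Fgfr1 probes, ILMN_2727068 read 59.0 ± 3.79 in total heart and 86.7 ± 6.07 in the lacZ-positive sample, and its detection p-value of 0.0107 on the second array missed the limit narrowly. The other, ILMN_2675581, read 46.8 and 54.6. The Fgfr4 probe ILMN_2625318 read 47.3 and 53.7, both close to the mean background. These values do not show that either gene was silent, only that these probes were not well above background.

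Fgf9, the ligand, was read by 2 probes that differed in size but not in direction. ILMN_2648289, the representative one, read 103.8 ± 8.15 (24 beads) in total heart and 157.4 ± 7.41 (30 beads) in the lacZ-positive sample. Its log2 ratio was 0.43, with a bead interval from 0.055 to 0.81. ILMN_1221265 read 76.0 ± 3.34 in total heart, not well above background with a detection p-value of 0.018, and 140.9 ± 7.57 in the lacZ-positive sample. The measured log2 ratio of this probe was 1.00, and as a bound against the lowest detected signal of the total heart array Fgf9 was at least 1.84-fold higher by this probe. Such a bound divides the bright value by the dim probe's signal or by the lowest detected signal of the dim array, whichever is more. Both readings were low, and both probes were brighter on the lacZ-positive array.

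Dusp6 gave the steadiest reading of the feedback genes. Probe ILMN_2925711 read 1783 ± 63.4 (39 beads) in total heart and 3962 ± 116 (37 beads) in the lacZ-positive sample, a log2 ratio of 0.78 with a bead interval from 0.65 to 0.91. ILMN_1248537 read 178 ± 7.93 and 365 ± 23.7, a ratio of 0.82. ILMN_2701321 read 83.4 ± 4.93 and 147.3 ± 7.37, a ratio of 0.83. Each of the 3 probes was detected on both arrays and higher in the lacZ-positive sample, and the interval of each lay above 0. By its representative probe Dusp6 stood at rank 683 of the 9713 genes.

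Spry4 and Spry2, the Sprouty members with a probe, were at or under the limit of detection. Spry4 was read by ILMN_2825817, with only 19 and 24 beads, at 66.1 ± 5.04 in total heart and 92.8 ± 6.76 in the lacZ-positive sample. It was detected on the lacZ-positive array alone, so its ratio of 0.53 rests on a total heart value not well above background, and the bound was at least 1.01-fold higher. Spry2 read 46.4 ± 2.57 and 47.8 ± 3.31 by ILMN_2749464, at background on both arrays. Neither gave a ratio with both arrays above background. A relative outside the 10 genes, Spry3, named after its value was seen, was detected on both arrays, with raw intensities of 87.0 and 160.9 and a log2 ratio of 0.89.

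Counted at 2-fold, 1 of the 6 detected members (Fgfr2) was higher, against 3.82% of all detected genes, and 0 were lower, against 6.44%. At 1.5-fold, a size chosen after the values were seen, 3 were higher (Fgfr2, Dusp6 and Fgfrl1), against 12.3% of all genes, and 0 were lower, against 12.7%. Of the 6 genes 5 had a ratio above 0, as did 54.2% of all genes. The members were chosen with earlier results of these data known, so setting them beside these shares is no test. The median of the 6 was 0.59 and that of all genes 0.044, but 1 of the 6, Spry4, was included through the lacZ-positive array alone. With no normalization between the arrays, Fgfr2, Dusp6 and Fgfrl1 were all past 2-fold, while their ratios relative to the median gene were 1.22, 0.75 and 0.63, close to the 1.18, 0.74 and 0.60 of the quantile-normalized values.

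**Figure D3:**
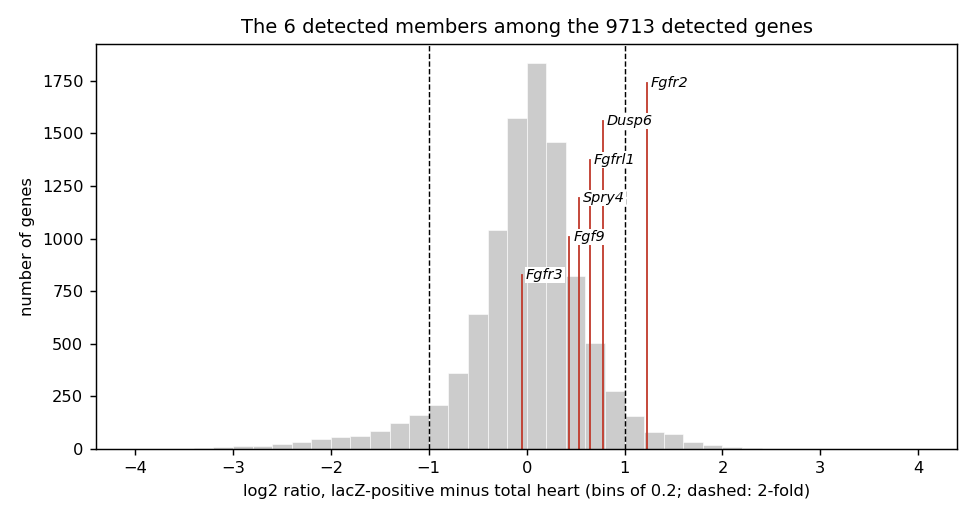
Number of genes (y axis) by log2 ratio of lacZ-positive to total heart (x axis, bins of 0.2) for the 9713 detected genes, with red lines at the ratios of the 6 detected members. Fgfr2 at 1.23 lies past the dashed 2-fold line, Dusp6, Fgfrl1, Spry4 and Fgf9 lie between 0.43 and 0.78, and Fgfr3 lies in the middle of the distribution.

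The other genes of the pathway were described through 5 lists, chosen by known function but with earlier results of these data known. Of the 21 other genes listed as FGF ligands or homologues, all on the array, 6 were detected. None of these (0) was higher by 2-fold, against 3.82% of all genes, and 2 were lower by 2-fold or more in measured ratio, against 6.44%. The median log2 ratio was -0.83. With genes detected on 1 array at their bounds, 1 was lower by 2-fold, Fgf13, and the median was -0.39. Unlike Fgf9, 4 of the 6, Fgf13 among them, had a ratio below 0. Fgf13, an FGF homologue that stays inside the cell and is not a receptor ligand, was 2.40-fold lower. It is counted in the values of this list. Fgf22 and Fgf7, both detected in total heart alone, were lower by at least 1.43-fold and at least 1.19-fold, and Fgf10, a ligand of the epithelial form of Fgfr2, stood at -0.69 by its representative probe and at -0.97 by the other. Fgf1 stood at 0.24, and Fgf5, detected in the lacZ-positive sample alone, at a measured 0.39 with no bound above 1.

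Genes of the cell surface partners of the receptors, the FGF co-receptors and the genes that make or trim heparan sulfate, had 24 of 28 measured genes detected, with a median ratio of 0.52. Of these 5 were higher by 2-fold or more, against 3.82% of all genes, 19 lay within 2-fold and 0 were lower, against 6.44%. Sulf1, a sulfatase that removes sulfate groups from heparan sulfate, was 2.82-fold higher, while its relative Sulf2 stood at -0.56, the lowest of the list. Flrt2, a membrane protein gene of the FLRT family, was 2.71-fold higher, Sdc4, a heparan sulfate proteoglycan gene, 2.38-fold, and the sulfotransferase genes Hs6st2 and Hs6st1 2.07-fold and 2.00-fold. At the low end Extl3, of heparan sulfate synthesis, stood at -0.17, and Sdc1 at 0.015 by one probe and 0.75 by another.

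The relay from receptor to ERK had 12 of 17 measured genes detected, with a median of 0.082. Of these 0 were higher by 2-fold, against 3.82% of all genes, and 0 lower, against 6.44%. Sos2, an activator of Ras, had the highest ratio at 0.78, Frs3, an FGF receptor adaptor detected in the lacZ-positive sample alone, was at least 1.14-fold higher, and the adaptor gene Shc1 stood at 0.30. The lowest were Crkl at -0.36, Map2k2 at -0.20, whose other probe gave 0.15, and Gab1 at -0.17.

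Of the other genes listed as feedback or target genes of ERK, 24 of 29 measured were detected, with a median of 0.54. At 2-fold 2 were higher, against 3.82% of all genes, and 0 lower, against 6.44%. The higher ones were Fos, an immediate early gene, at 2.69-fold, and Dusp4, an ERK phosphatase of the nucleus, at 2.26-fold, though the lowest of the 3 Dusp4 probes gave 0.64. Egr1, another immediate early gene, stood at 0.94. At the low end Myc, Dusp10 and Spred3 were seen in total heart alone and were at least 1.16-fold, 1.45-fold and 1.14-fold lower, where the other detected probe of Dusp10 gave 0.11. At 1.5-fold, a size chosen after the values were seen, 12 of the 24 were higher, against 12.3% of all genes. In measured ratio 3 were lower, against 12.7% of all genes, and 0 with genes detected on 1 array at their bounds.

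Fgfr2 was set beside other receptor tyrosine kinases, of which 27 of 44 measured were detected, with a median of 0.47. At 2-fold 6 were higher, against 3.82% of all genes, and 0 lower, against 6.44%. By representative probes the Fgfr2 ratio of 1.23 was above that of 24 of the 27. The 3 above it were Egfr (2.73-fold higher), Epha1 (2.53-fold) and Mst1r (2.50-fold). By its other detected probe, at 0.67, Fgfr2 was above 19 of the 27, and the 4 detected probes of Egfr ranged from 0.68 to 1.45. Axl, Epha3 and Pdgfra were 2.08-fold, 2.06-fold and 2.06-fold higher. Kit stood at -0.53, Tie1 at -0.45 and Erbb2 at -0.16. The Fgfrl1 ratio was above 19 of the 27 and that of Fgfr3 above 5.

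**Figure D4:**
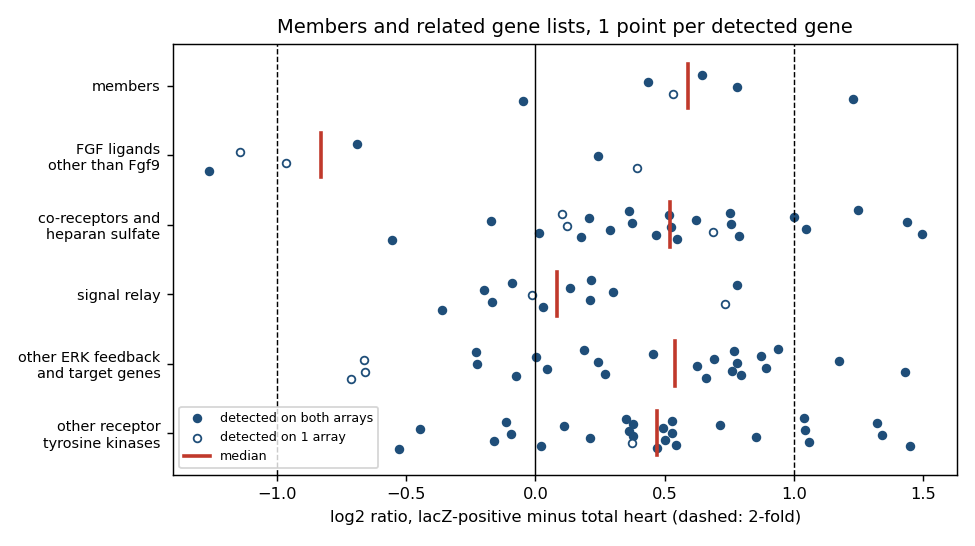
Log2 ratio of lacZ-positive to total heart (x axis) for the detected members and the detected genes of 5 related lists (y axis), with filled points for genes detected on both arrays, open points for genes detected on 1, and red bars at the medians. The medians of measured ratios are 0.59 for the members, -0.83 for the other FGF ligands with Fgf13 included, and 0.52 for co-receptors and heparan sulfate. They are 0.082 for the relay, 0.54 for other ERK feedback and target genes and 0.47 for other receptor tyrosine kinases.

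The samples differed in markers of several cell types at the same time, and in bulk RNA fewer cells of a type and less RNA per cell cannot be told apart. Tcf21 was 2.53-fold higher in the lacZ-positive sample. Of 20 epicardial markers 15 were detected, 11 of them higher by 2-fold or more, and the summed normalized signal of the list was 7038 in total heart and 22111 in the lacZ-positive sample. Tbx18, Msln, Sema3d and Lhx2, also epicardial, were detected on neither array. Mesenchyme markers, 14 of 15 detected, summed to 23904 and 50557. Cardiomyocyte markers, 19 of 20 detected on both arrays, summed to 250630 and 108893, the median ratio was -1.44, and 15 were lower by 2-fold or more. Erythroid markers, 15 of 16 detected, summed to 232987 and 173858, sums carried by globin probes near the top of the intensity range, while 11 of the 15 were at least 2-fold lower and the median ratio was -2.12. Endothelial markers, 13 of 15, summed to 16842 and 16984, with 8 of the 13 below 0 and 5 above, and a median of -0.11. The highest was Tek (log2 ratio 0.50), and 2 were at least 2-fold lower, Cldn5 (-1.59) and Robo4 (-1.13). Markers of foregut endoderm and epithelium, where Fgfr2 and its ligand Fgf10 are known to act, had 11 of 16 detected and summed to 1399 and 422. In measured ratio 9 were at least 2-fold lower, and 6 with genes detected on 1 array at their bounds, the lowest being Cldn6 (6.29-fold lower). Nkx2-1, Foxa1, Shh and Cdh1 were detected in total heart and not in the lacZ-positive sample, and Epcam, Foxa2 and Sftpc on neither array. Cldn3 and Esrp2 went the other way. Both were detected in the lacZ-positive sample alone, at a measured 0.54 and 0.29 with no bound above 1. Macrophage markers, 7 of 11, summed to 941 and 741, with a median ratio of 0.0025, 4 above 0 and 3 below. Lyz2, at -1.48, was the 1 macrophage marker at least 2-fold lower. Of 10 neural markers 1, Sox10, was detected, at -0.61. The part of these cell types in the ratios of the FGF genes was not tested.

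**Figure D5:**
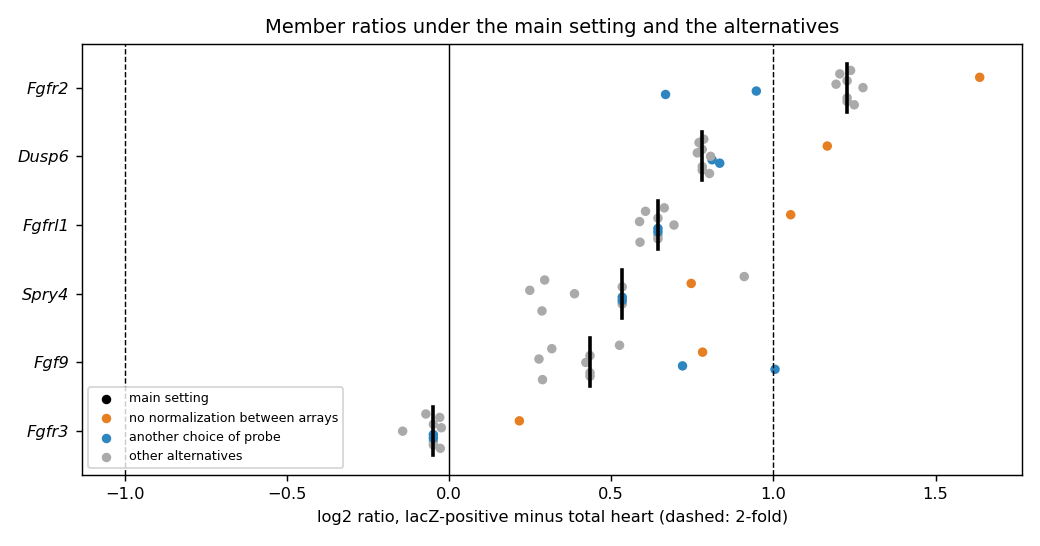
Log2 ratio of lacZ-positive to total heart (x axis) of the 6 detected members (y axis) under the main setting (black bars) and 11 alternatives (points), with orange for no normalization between arrays and blue for another choice of probe. Fgfr2, Dusp6, Fgfrl1, Spry4 and Fgf9 stay above 0 at every point, and Fgfr3 lies between -0.14 and 0.22. Fgfrl1, Fgfr3 and Spry4 have 1 detected probe each, so settings of probe choice or detection cannot change their ratios. Spry4 has 10 points, since it drops out where detection on both arrays is asked.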

How the data were processed

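RNA was extracted with the QIAGEN miRNeasy kit and biotin-labelled with the Ambion MessageAmp kit, per the labels' protocols, and the submitters' processing notes name GenomeStudio. The deposited table holds, per the file headers, an intensity per probe averaged over beads, its standard error, the count of beads and a detection p-value. The intensity values deposited by the authors were on a linear scale, not background-subtracted and not scaled between arrays. The p-values deposited by the authors were multiples of 1/936. A second deposited intensity table, equalised between the arrays by a method not given in the sources used here (medians 58.3 and 58.3, no centring), served as an alternative. The genome build is not given in the sources used here.

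Intensities were corrected with the normexp model fitted to the detection p-values (limma 3.58.1, R 4.3.3), given an offset of 16, quantile-normalized and logged to base 2. Fold changes are therefore on the log2(signal + 16) scale, which understates the change of dim probes. Steps were tested on simulated data, with changes placed in brighter probes only and as many raised as lowered. Probes as dim as those of Fgf9, Fgfr3 and Spry4 were not covered by that test. Bead errors were carried through the same transformation, and intervals are 1.96 standard errors wide on each side. Gene symbols came from the platform annotation in GEO: 34885 had 1 symbol, 18 several and 10378 none. The 9 member genes with probes were found in RefSeq under the same symbol. With 1 array per group no test was made, and the number of arrays limits the precision. Genes could be named if they were members, or had the 3 highest or 3 lowest ratios of a pathway list or passed 2-fold there. The highest and the lowest detected gene of each list of cell type markers, and Tcf21, could be named as well. Robo4 and the undetected or 1-array markers other than Cldn3 were named outside this rule, after their values were seen. Likeness between genes was not computed, since 2 arrays give it no content. The members and lists were chosen with earlier results of these data known.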

Additional observations from a re-analysis of the deposited data

How the results depend on the processing

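Each group had 1 array, so leaving out a replicate was not possible. No paired analysis was possible because each group has 1 array and the labels give no replicate numbers. With no normalization between arrays, the ratios were 1.64 for Fgfr2, 1.17 for Dusp6 and 1.05 for Fgfrl1, 3 members were at least 2-fold higher and the members' median was 0.92, beside a shift of all genes to 0.42. The choice of probe mattered for genes with several: Fgfr2 gave 0.95 as the mean of its detected probes, with 0 members then past 2-fold, and 0.67 by its dimmest detected probe, where Fgf9 gave 1.00. Every other ratio of the 6 detected members moved by less than its 95% bead interval under the alternatives run. For Fgfrl1, Fgfr3 and Spry4, with 1 detected probe each, the settings of probe choice and detection could not change the ratio. That interval is wide for dim genes, so that Spry4 ranged from 0.25 to 0.91 within it. Only Fgfr3, near 0, crossed 0, at 0.22 with no normalization between arrays, where the relay genes also had a median of 0.44. Spry4 drops out where detection on both arrays is asked. At a detection limit of 0.05 Fgfr1 was included, at 0.66, through 1 probe on the lacZ-positive array alone. That probe had a detection p-value of 0.0107 there and 0.11 in total heart. Of all genes, 371 were at least 2-fold higher and 626 lower. Those higher numbered 1020 with no normalization between arrays, 570 with plain background subtraction, 223 with an offset of 50, 219 with the authors' processed values and 202 with no background correction. Those lower numbered 381 with no normalization between arrays, 404 with the authors' processed values and 380 with no background correction. At 1.5-fold, a size chosen after seeing the data, 1199 were higher and 1230 lower, and 3 members were higher. Low signal over background limits Fgf9, Fgfr3 and Spry4 in particular, and Fgfr1, Fgfr4 and Spry2 cannot be compared.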

Other observations

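Probes of 1 gene were hybridised with the same RNA but may read different transcripts, and the cause of differences between them was not tested. Over the 3529 genes with several detected probes, the distance between the highest and the lowest log2 ratio had a median of 0.28. For Dusp6 it was 0.054 over 3 probes, and only 9.97% of these genes had a distance that small or smaller. For Fgfr2 it was 0.56 and for Fgf9 0.57, each over 2 detected probes, where 79.9% and 80.6% of the genes had that distance or less. Among the ligand genes not detected on either array were Fgf2, which read 41.6 in total heart and 71.8 in the lacZ-positive sample with a detection p-value of 0.053 on the latter, and Fgf18, which read 66.3 and 61.9. Fgf16 and Fgf20, close relatives of Fgf9, read 44.8 and 45.3, and 49.6 and 45.9, all at background. These 4 genes were named after their values were seen.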
